A study of Homo sapiens with 4 samples.

Results

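The autophagy and lysosome control genes are 41 named genes that carry out or direct macroautophagy, the enclosure of cytoplasm in a double membrane and its delivery to the lysosome. They were listed by name and function, with no threshold on a measured value, out of 60675 genes in the count files, of which 17600 had enough counts to be tested. All cells were LNCaP, an androgen receptor-positive line derived from a lymph node metastasis of a human prostate cancer, grown in medium with hormone-depleted serum and exposed to 1 nM R1881, a synthetic androgen, over 72 h. In the vehicle group (2 libraries) R1881 was given with DMSO, and in the CPI-455 group (2 libraries) it was given with 50 µM CPI-455, an inhibitor of the KDM5 family of histone H3 lysine 4 demethylases. The comparison asks how CPI-455 alters gene expression in the presence of androgen. Every group therefore carried R1881, no library without androgen and none with CPI-455 alone was analysed here, and the results concern 1 cell line.

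Autophagy begins when the ULK kinase complex, held inactive by mTORC1 in fed cells and activated by AMPK, sets in motion a lipid kinase complex built on PIK3C3 and BECN1, which marks the growing membrane with phosphatidylinositol 3-phosphate. Lipid carriers and 2 ubiquitin-like conjugation reactions then extend the membrane and attach to it the ATG8 proteins (the LC3 and GABARAP families), which bind receptors that carry cargo. The closed autophagosome fuses with the lysosome. Many genes of the pathway are under the control of the MiT/TFE transcription factors TFEB, TFE3 and MITF, which bind E-box sequences in promoters.

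The vehicle libraries held 19623553 and 20690819 counted fragments and the CPI-455 libraries held 9522920 and 5401588, so that the level of a gene in the CPI-455 group rests on fewer counts. Log2 counts across genes correlated at 0.993 between the vehicle libraries, at 0.946 between the CPI-455 libraries and at 0.816 to 0.837 between groups. These correlations are across genes, which are not independent replicates. All 9 markers of LNCaP and luminal prostate cells were detected in every library, at a summed level (CPM, the count scaled to normalised library size) of 883 to 957 in the vehicle libraries against 383 to 438 in the CPI-455 libraries. The 10 markers of other cell types summed to 15.0 to 15.9 CPM and to 21.0 to 22.9 CPM in the same order, with 3 to 5 of the 10 at zero in each library and the basal keratin KRT5 at zero in all. Single markers could go against their sums. Among the luminal markers KLK2 averaged 74.3 and then 109.9 CPM (not called). Among the others CHGA fell (5.95 and 2.49 CPM) against the sum, while COL1A1 rose with it (4.50 and 8.93 CPM). Both sums moved with the treatment, and their part in the results was not tested. Levels are shares of each library, so fewer cells of a kind and less RNA per cell cannot be told apart.

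Most of these genes were expressed in LNCaP cells and few changed by 2-fold or more. Of the 41 genes, 40 were tested, and MAP1LC3A was left out with counts of 4, 4, 3 and 0. A gene was called when its false discovery rate (FDR, over all genes tested, edgeR quasi-likelihood test) was below 0.05 and its change was at least 2-fold. With CPI-455, 3 members rose (GABARAPL1, ATG4B and ATG10) and 6 fell (ATG101, MITF, PIK3R4, BECN1, PIK3C3 and AMBRA1). The members called made up 22.5% of those tested, against 42.4% of all genes. The 3 that rose are 7.5% of members, against 21.0% of all genes and 15.6% of protein-coding genes, and the 6 that fell are 15.0%, against 21.3% and 24.4%. The members called were thus a smaller share than the background in each direction. With no minimum fold, 9 members were higher and 20 were lower at an FDR below 0.05, or 22.5% and 50.0% of members against 29.8% and 32.8% of all genes and 26.3% and 38.7% of protein-coding genes. The median log2 fold change of the members (CPI-455 over vehicle, as throughout) was −0.34, with quartiles of −0.88 and 0.28. The median was −0.04 over all genes and −0.21 over protein-coding genes.

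The calls moved with the length and base composition of the transcripts. When a smooth trend on exon length and exon GC content was removed from each library, the median of the members was −0.08, that of protein-coding genes was −0.05, and 4 members were called higher and 2 lower. ATG101 and MITF then remained lower, GABARAPL1, ATG4B and ATG10 remained higher, and CALCOCO2 was added to those higher. The 4 genes of the lipid kinase complex were no longer called. The cause of this shift was not tested.

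**Figure D1:**
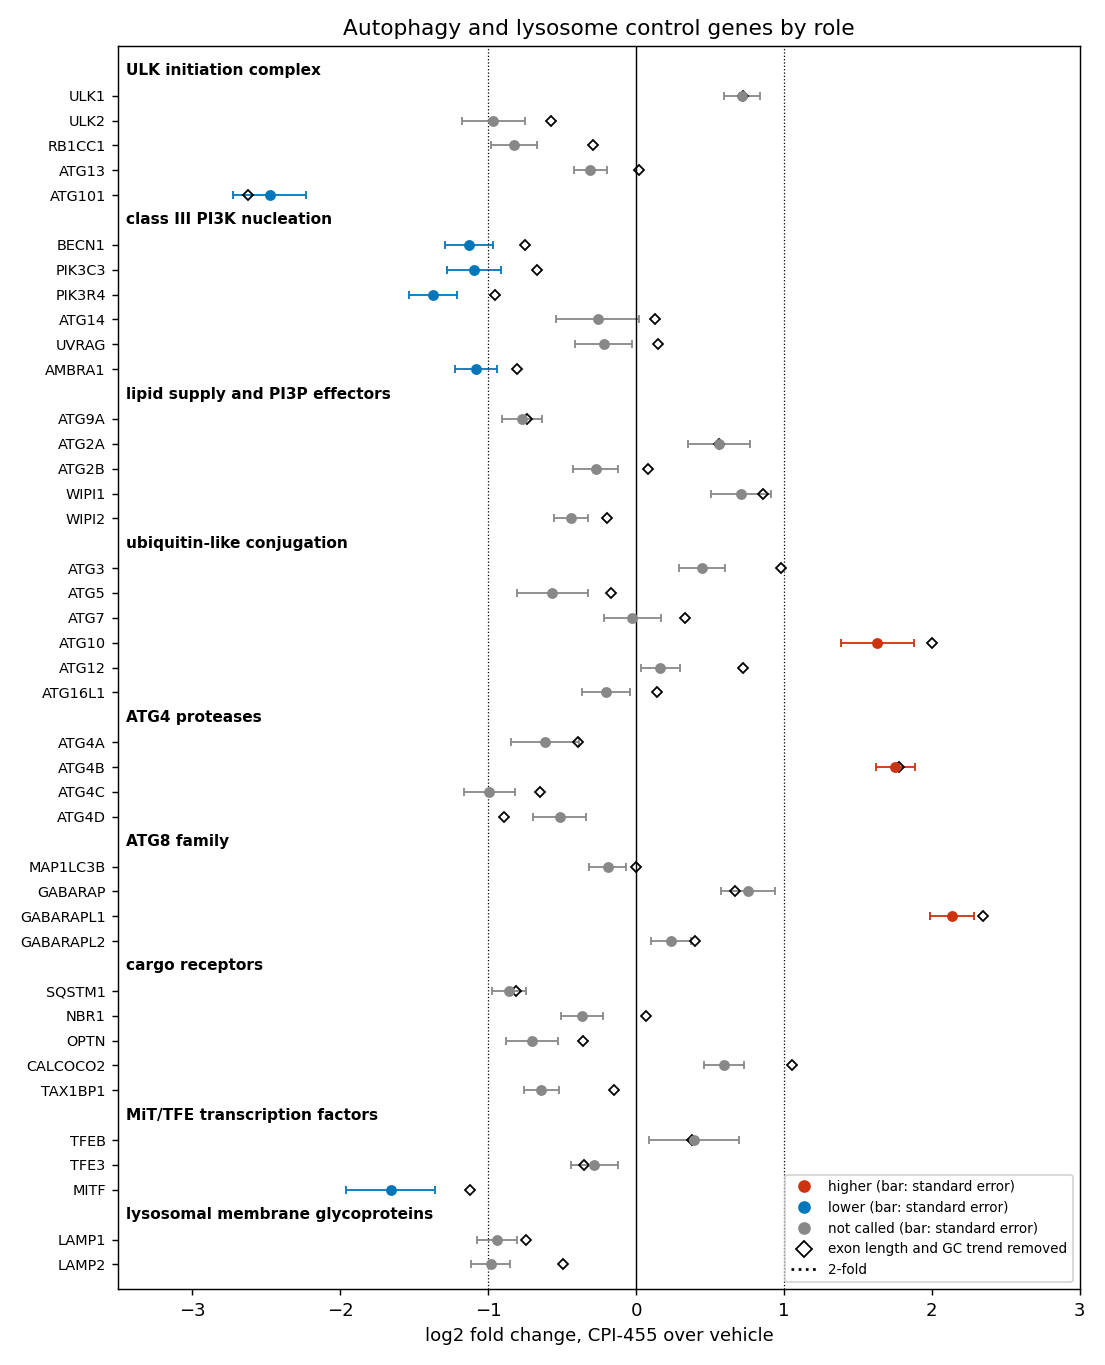
Log2 fold change of the 40 members tested, CPI-455 over vehicle (horizontal axis), in the order of their roles (vertical axis). Filled points with bars are estimates with their standard errors, coloured by call, diamonds are the estimates with the exon length and GC trend removed, and dotted lines mark 2-fold. The points run from −2.48 for ATG101 to 2.14 for GABARAPL1, and most diamonds lie to the right of their points.

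The promoters of 4 genes are shown because each bears on a result, namely the member that rose most (GABARAPL1), the member that fell most (ATG101), and the pair whose windows hold the full E-box motif of the MiT/TFE factors (LAMP1 and ATG3). The sequences are from RefSeq on GRCh38.p14 and run from 220 bases before the annotated start to 20 bases after it, 5′ to 3′ on the strand of the gene. The GABARAPL1 window is chr12:10212657-10212896 and the ATG101 window chr12:52069758-52069997, both on the plus strand. The LAMP1 window is chr13:113297019-113297258 on the plus strand, and the ATG3 window chr3:112561943-112562182 on the minus strand. Capitals mark matches on either strand to CACGTG (the E-box core), TCACGTGA (the fuller form, which contains the core), TGACNNNGC (the antioxidant response element core) or GAANNTTC (a unit of the heat shock element). The first run of capitals in LAMP1 joins a TGACNNNGC match on the opposite strand with the E-box core that it overlaps.
GABARAPL1: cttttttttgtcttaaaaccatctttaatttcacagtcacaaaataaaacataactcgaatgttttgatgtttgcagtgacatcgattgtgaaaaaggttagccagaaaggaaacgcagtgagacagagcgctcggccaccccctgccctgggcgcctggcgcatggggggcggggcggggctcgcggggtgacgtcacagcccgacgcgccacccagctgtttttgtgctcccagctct
ATG101: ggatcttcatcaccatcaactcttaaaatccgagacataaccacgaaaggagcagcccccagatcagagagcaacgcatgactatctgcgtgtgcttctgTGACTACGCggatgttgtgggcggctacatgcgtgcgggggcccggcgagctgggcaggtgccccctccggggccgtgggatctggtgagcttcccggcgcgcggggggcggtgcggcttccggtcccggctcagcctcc
LAMP1: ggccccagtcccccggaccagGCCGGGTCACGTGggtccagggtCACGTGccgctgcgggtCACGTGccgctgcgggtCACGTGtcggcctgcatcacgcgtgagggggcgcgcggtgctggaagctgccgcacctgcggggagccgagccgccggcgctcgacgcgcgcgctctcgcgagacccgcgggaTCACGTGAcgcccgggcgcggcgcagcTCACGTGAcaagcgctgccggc
ATG3: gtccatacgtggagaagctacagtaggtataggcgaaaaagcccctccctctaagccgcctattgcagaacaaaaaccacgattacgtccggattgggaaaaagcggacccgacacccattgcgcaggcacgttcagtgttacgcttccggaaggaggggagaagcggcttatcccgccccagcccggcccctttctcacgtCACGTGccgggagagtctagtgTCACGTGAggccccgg
The LAMP1 window held 6 E-box cores, 2 of them within TCACGTGA, and the ATG3 window held 2 cores, 1 of them within TCACGTGA. The ATG101 window held a TGACNNNGC match, and the GABARAPL1 window held none of the motifs searched. In the table, 36 members had 48 windows of 300 bases. Of these, 3 windows held CACGTG (ATG3, ATG14 and LAMP1), or 6.25% against 7.26% of all 35116 windows, and 2 held TCACGTGA, or 4.17% against 0.980%. TGACNNNGC was found in 4 windows (ATG101, CALCOCO2, LAMP1 and MAP1LC3B), or 8.33% against 13.3%, and GAANNTTC in 2 (GABARAPL2 and TAX1BP1), or 4.17% against 6.77%. The members with the TCACGTGA motif did not share a direction, since LAMP1 had a log2 fold change of −0.94 (SE 0.14) and ATG3 of 0.45 (SE 0.16). A match describes these letters and does not show binding.

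Among the 5 subunits of the ULK initiation complex, ATG101 fell and ULK1 and ULK2 had estimates on opposite sides of zero. ATG101, which stabilises ATG13 in the complex, lies on chromosome 12 from 52069246 to 52077494 on the plus strand (GRCh38, ENSG00000123395). Its level was 23.1 and 26.5 CPM in the vehicle libraries and 3.94 and 5.16 CPM in the CPI-455 libraries, from 488 and 578 counts and from 35 and 26. The groups did not overlap, and the fall was 5.57-fold (log2 fold change −2.48, SE 0.25, FDR 2.74e-05). An antisense gene with no symbol covers 19.2% of its exon length and was at zero CPM in both groups.

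ULK1, the main kinase of the complex, was at 71.3 and 69.8 CPM with vehicle and at 123 and 108 CPM with CPI-455. The difference was below the 2-fold limit (1.64-fold, log2 0.72, SE 0.12, FDR 0.000807). Its paralog ULK2 was at 47.3 and 43.2 CPM with vehicle and 28.1 and 17.3 CPM with CPI-455, and its log2 fold change of −0.96 (SE 0.21, FDR 0.0035) lay just inside the limit. ULK1 therefore made up 60.1% (95% Wilson interval 58.1 to 62.0) and 61.8% (59.8 to 63.7) of the counts of the pair in the vehicle libraries, and 81.4% (79.3 to 83.4) and 86.2% (83.3 to 88.7) in those with CPI-455. Such intervals cover counting error only. RB1CC1 (FIP200), the scaffold of the complex, was at 222 ± 14.1 CPM with vehicle and 126 ± 28.6 CPM with CPI-455 (mean ± SD, n = 2, as for all such values), a log2 fold change of −0.83 (SE 0.16, FDR 0.00132). ATG13, the regulatory subunit, was at 141 and 141 CPM and at 114 and 113 CPM, a log2 fold change of −0.31 (SE 0.11, FDR 0.034). Estimates with the exon length and GC trend removed were 0.72 for ULK1, −0.58 for ULK2, −0.29 for RB1CC1 and 0.021 for ATG13.

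Of the 6 genes of the class III PI3K complex, 4 fell, or 66.7%, against 21.3% of all genes and 24.4% of protein-coding genes. The 4 fell by 2.11-fold to 2.59-fold each, and none was called with the exon length and GC trend removed. Their groups did not overlap, which is no further support because the genes were called on these same libraries. PIK3R4 (VPS15), the regulatory subunit, lies on chromosome 3 from 130678935 to 130746829 on the minus strand (ENSG00000196455). Its level was 58.2 and 57.6 CPM with vehicle and 24.4 and 19.8 CPM with CPI-455, a log2 fold change of −1.37 (SE 0.16, FDR 6.96e-05). This was the largest fall of the complex.

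BECN1 (Beclin 1), the scaffold, lies on chromosome 17 from 42810134 to 42833350 on the minus strand (ENSG00000126581). Its level was 45.9 and 45.7 CPM with vehicle and 19.6 and 22.6 CPM with CPI-455 (log2 fold change −1.13, SE 0.16, FDR 0.000249). The vehicle libraries were nearly equal and both lay more than 2-fold above either CPI-455 library. BECN1 shares 17.1% of its exon length with CNTD1 and PSME3 on the opposite strand, and fragments over shared bases were not counted.

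PIK3C3 (VPS34), the catalytic subunit, lies on chromosome 18 from 41955206 to 42087830 on the plus strand (ENSG00000078142). Its level was 30.6 and 33.9 CPM with vehicle and 15.7 and 14.3 CPM with CPI-455 (log2 fold change −1.10, SE 0.18, FDR 0.000607). AMBRA1, an activator of BECN1 and a substrate adaptor of a ubiquitin ligase, lies on chromosome 11 from 46396414 to 46594125 on the minus strand (ENSG00000110497). It was at 88.5 and 92.0 CPM with vehicle and at 46.6 and 38.3 CPM with CPI-455 (log2 fold change −1.08, SE 0.14, FDR 0.000144). The adaptors that set the site of the complex were not called. ATG14, which directs it to the forming autophagosome, was at 19.7 and 17.4 CPM and at 19.8 and 10.3 CPM (log2 fold change −0.26, SE 0.28, FDR 0.442), and its groups overlapped. UVRAG, of the endosomal form, was at 23.7 and 26.1 CPM and at 19.0 and 24.2 CPM (−0.22, SE 0.19, FDR 0.345), again with overlap. With the exon length and GC trend removed, the log2 fold changes of PIK3R4, AMBRA1, BECN1 and PIK3C3 were −0.95, −0.81, −0.75 and −0.67, all below 2-fold. With upper-quartile normalization AMBRA1 (−0.90), BECN1 (−0.95) and PIK3C3 (−0.92) were also below 2-fold, and a test against a 2-fold change called PIK3R4 alone of the 4. Without CPI-455 replicate 2, AMBRA1 was also just short of 2-fold (−0.999).

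**Figure D2:**
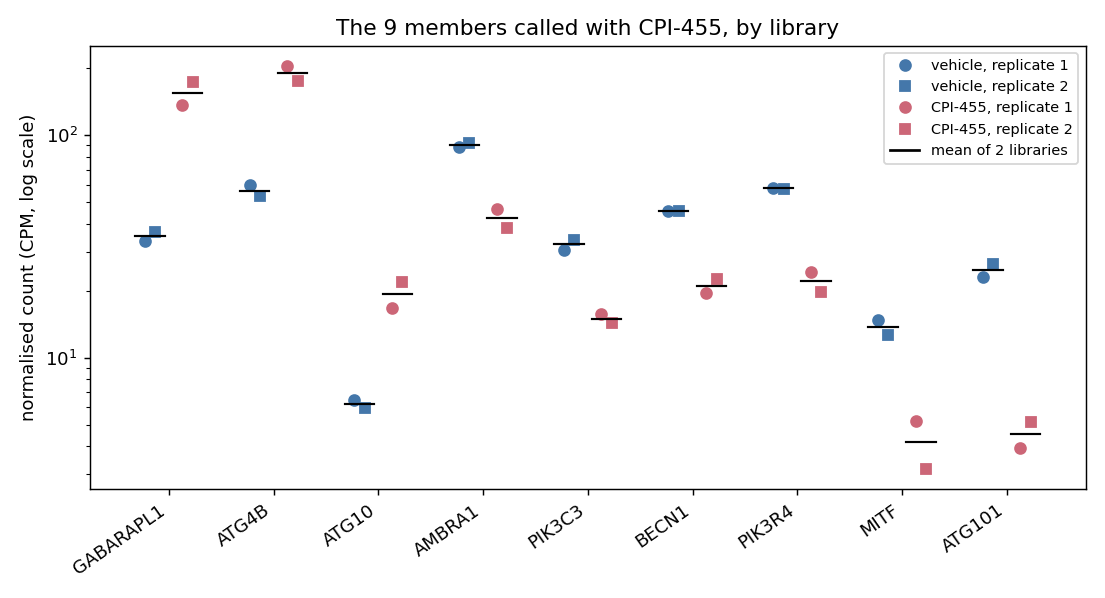
Normalised counts (CPM, logarithmic vertical axis) of the 9 members called, in order of fold change (horizontal axis). Each symbol is a library, coloured by group with the shape giving the replicate, and bars are means of 2 libraries. The groups do not overlap in any of the 9 genes, which is no further support because the genes were called on these same libraries. GABARAPL1 averages 35.1 ± 2.36 CPM with vehicle and 155 ± 26.1 CPM with CPI-455.

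None of the 5 genes of lipid supply and phosphatidylinositol 3-phosphate binding was called. ATG9A, a lipid scramblase carried in vesicles to the growing membrane, was at 95.3 and 93.5 CPM with vehicle and 60.4 and 49.6 CPM with CPI-455 (log2 fold change −0.77, SE 0.14, FDR 0.000971). It shares 34.9% of its exon length with ABCB6, which rose with CPI-455 (log2 fold change 2.35), so its level rests on the exons it does not share. WIPI1, which binds the lipid mark, was at 11.8 and 12.3 CPM with vehicle and 19.8 and 19.6 CPM with CPI-455 (0.71, SE 0.20, FDR 0.0126), and it shares 28.1% of its exon length, mostly with ARSG. Its relative WIPI2, which recruits the conjugation machinery, was at 133 ± 4.5 CPM and 98.0 ± 5.36 CPM (−0.44, SE 0.12, FDR 0.00829). The lipid transfer proteins ATG2A and ATG2B had log2 fold changes of 0.56 (SE 0.21, FDR 0.0396) and −0.27 (SE 0.15, FDR 0.147). In each of these pairs of relatives the estimates lay on opposite sides of zero, except that ATG2B was above zero with the exon length and GC trend removed (0.079).

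Of the 6 genes of the ubiquitin-like conjugation reactions, ATG10 rose and the other five were not called. ATG10, the E2-like enzyme that joins ATG12 to ATG5, lies on chromosome 5 from 81972025 to 82276857 on the plus strand (ENSG00000152348). Its level was low, 6.44 and 5.95 CPM with vehicle and 16.8 and 22.0 CPM with CPI-455, from 136 and 130 counts and from 149 and 111. The groups did not overlap, and the rise was 3.10-fold (log2 1.63, SE 0.25, FDR 0.000369).

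ATG3, the E2-like enzyme for the ATG8 proteins, was at 32.9 and 35.2 CPM with vehicle and 50.4 and 41.8 CPM with CPI-455 (log2 fold change 0.45, SE 0.16, FDR 0.0309). With the trend removed its log2 fold change was 0.98, still under 2-fold. The E1-like enzyme ATG7, which serves both reactions, was at 18.1 and 18.9 CPM and at 17.4 and 19.0 CPM (−0.02, SE 0.19, FDR 0.92), and VGLL4, which fell (log2 fold change −1.56), covers 18.1% of its exon length on the opposite strand. ATG12, the ubiquitin-like protein, was at 49.9 and 48.3 CPM and at 55.4 and 54.5 CPM (0.16, SE 0.13, FDR 0.305). Its partners ATG5 and ATG16L1 had log2 fold changes of −0.57 (SE 0.24, FDR 0.0639) and −0.20 (SE 0.16, FDR 0.30). The enzymes ATG7, ATG10 and ATG3 thus had estimates of about zero, a called rise and an uncalled increase.

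Among the 4 ATG4 proteases, which trim ATG8 proteins before their attachment and release them afterwards, ATG4B rose while the other three had estimates below zero. ATG4B, the most active of the family on most ATG8 proteins, lies on chromosome 2 from 241637213 to 241673857 on the plus strand (ENSG00000168397). It was at 59.6 and 53.1 CPM with vehicle and 204 and 175 CPM with CPI-455, and the rise was 3.37-fold (log2 1.75, SE 0.13, FDR 5.04e-06). Both CPI-455 libraries lay far above the vehicle libraries. ATG4C was at 41.9 and 50.5 CPM and at 24.5 and 21.6 CPM, and with a log2 fold change of −0.99 (SE 0.17, FDR 0.000801) it was just inside the 2-fold limit. Its estimate was −0.65 with the exon length and GC trend removed. ATG4A and ATG4D had log2 fold changes of −0.62 (SE 0.23, FDR 0.042) and −0.52 (SE 0.18, FDR 0.0306), and 15.0% of the exon length of ATG4D is shared with KRI1, which rose (log2 fold change 1.45). ATG4B took 38.6% (37.0 to 40.3) and 32.9% (31.3 to 34.4) of the counts of the family with vehicle, and 76.1% (74.3 to 77.7) and 75.4% (72.9 to 77.8) with CPI-455.

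The ATG8 family showed the largest rise among the members, in GABARAPL1, whose product is a GABARAP-type ATG8 protein. GABARAPL1 lies on chromosome 12 from 10212458 to 10223130 on the plus strand (ENSG00000139112), and its promoter is printed above. Counts rose from 706 and 803 in the vehicle libraries to 1215 and 875 in the smaller CPI-455 libraries. This is 33.4 and 36.8 CPM against 137 and 174 CPM, a rise of 4.40-fold (log2 2.14, SE 0.15, FDR 3.46e-06) with no overlap.

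GABARAP was at 15.3 and 17.5 CPM with vehicle and 26.8 and 28.9 CPM with CPI-455 (1.69-fold, log2 0.76, SE 0.18, FDR 0.00559). The change was under 2-fold, and the lack of overlap between groups of 2 libraries is no further support. GABARAP shares 55.7% of its exon length with 2 genes that have no symbol and were near zero CPM. GABARAPL2 was at 73.2 and 71.4 CPM and at 77.7 and 93.6 CPM (log2 fold change 0.24, SE 0.13, FDR 0.148). MAP1LC3B, the LC3 gene whose lipid-bound protein is the usual marker of autophagosomes, was at 123 and 126 CPM and at 101 and 118 CPM (−0.19, SE 0.12, FDR 0.20). Its near-identical copy MAP1LC3B2 had only 12 to 25 counts per library, and fragments that align to both were not counted. MAP1LC3A was at 0.189, 0.183, 0.337 and 0 CPM, so its change was not measurable at this depth.

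Levels were also set per kilobase of exon not shared with another gene. The length is that of all annotated exons and not of the transcripts expressed, so comparison between genes is rough. GABARAPL1 was at 9.34 ± 0.629 CPM per kilobase with vehicle, below GABARAP (16.3 ± 1.52), GABARAPL2 (23.8 ± 0.411) and MAP1LC3B (24.1 ± 0.354). With CPI-455 it was at 41.3 ± 6.94 CPM per kilobase, above GABARAP (27.7 ± 1.54), GABARAPL2 (28.2 ± 3.70) and MAP1LC3B (21.2 ± 2.42). In this unit the lowest of the 4 expressed genes with vehicle was the highest with CPI-455. GABARAPL2 and MAP1LC3B with vehicle, and GABARAP and GABARAPL2 with CPI-455, lay within each other's spread. Per kilobase of all exon, shared or not, GABARAP was the lowest with vehicle (7.24 ± 0.671 CPM, against 8.59 ± 0.579 for GABARAPL1). GABARAPL1 was still the highest with CPI-455 (38.0 CPM per kilobase). As a share of the raw counts of the family, GABARAPL1 made up 13.6% (12.7 to 14.6) and 14.6% (13.7 to 15.6) with vehicle and 40.0% (38.2 to 41.7) and 41.9% (39.8 to 44.0) with CPI-455.

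**Figure D3:**
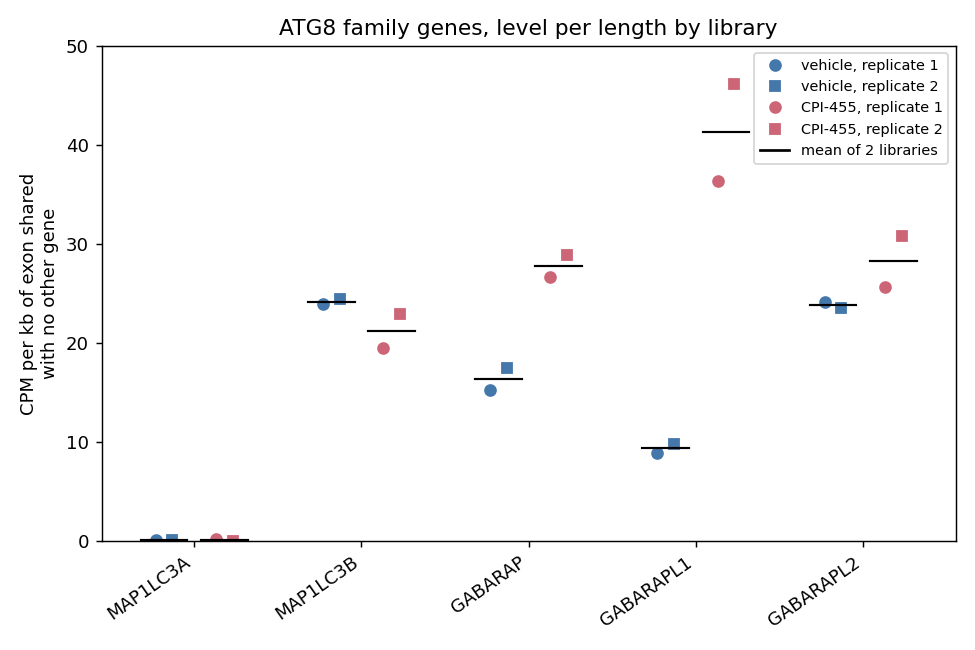
Levels of the 5 ATG8 family genes (horizontal axis) in CPM per kilobase of exon shared with no other gene (vertical axis), by library. Symbols are libraries and bars are means of 2 libraries, with GABARAPL1 the lowest of the 4 expressed genes with vehicle (9.34) and the highest with CPI-455 (41.3). Per kilobase of all exon, GABARAP was the lowest with vehicle (7.24, against 8.59 for GABARAPL1).

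**Figure D4:**
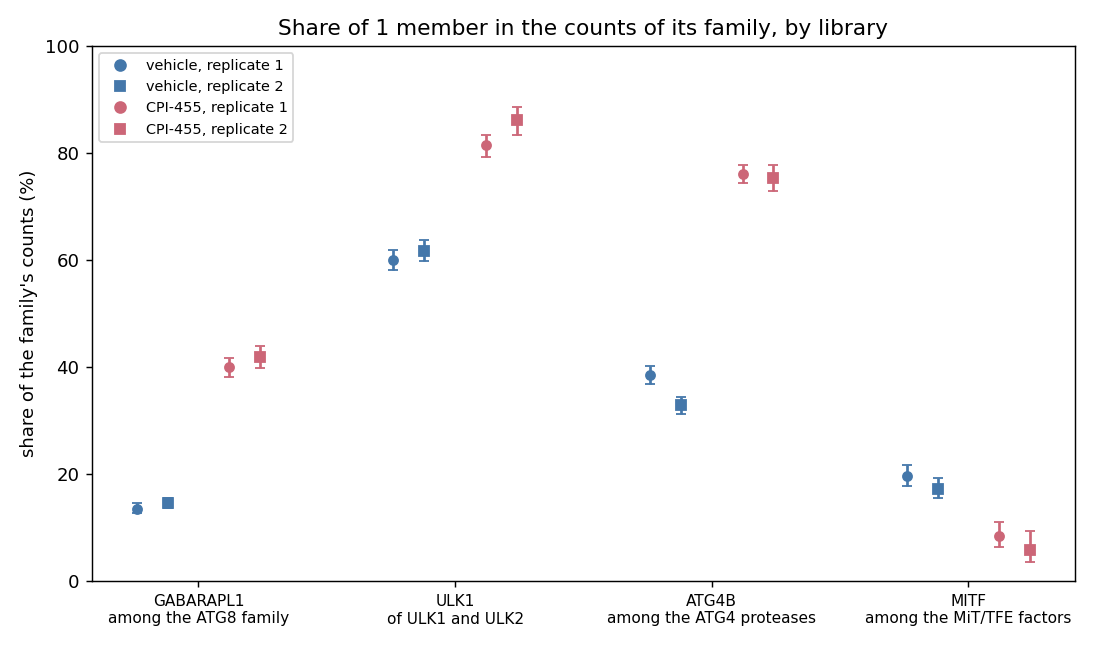
Share of the raw counts of a family taken by 1 member (vertical axis, %), by library, for 4 families (horizontal axis). Error bars are 95% Wilson intervals and cover counting error only, and the groups lie apart in all 4 families, with MITF the only share that is lower with CPI-455.

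None of the 5 cargo receptors, which link ubiquitin-marked cargo to ATG8 proteins, was called. SQSTM1 (p62) was at 125 and 125 CPM with vehicle and at 69.6 and 68.0 CPM with CPI-455, a 1.81-fold difference with little spread within groups (log2 fold change −0.86, SE 0.12, FDR 0.000176). It shares 20.7% of its exon length with MRNIP on the opposite strand, which rose (log2 fold change 2.06). TAX1BP1 was at 116 and 124 CPM and at 74.9 and 78.9 CPM (−0.64, SE 0.12, FDR 0.00121). OPTN, a receptor for mitochondria and bacteria, was at 58.4 and 76.3 CPM and at 37.6 and 45.6 CPM (−0.71, SE 0.17, FDR 0.00627).

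NBR1, which acts with SQSTM1, was at 81.1 and 87.2 CPM and at 58.8 and 72.6 CPM (−0.37, SE 0.14, FDR 0.0458). CALCOCO2 (NDP52) went the other way, at 76.5 and 95.8 CPM with vehicle and 132 and 128 CPM with CPI-455 (1.51-fold, log2 0.59, SE 0.14, FDR 0.00425). The groups did not overlap in any of the 5 receptors, but each group has 2 libraries and the share of all genes without overlap was not counted. With the trend removed, CALCOCO2 passed the 2-fold limit (1.06), SQSTM1 stood at −0.81, OPTN at −0.36 (FDR 0.0688) and TAX1BP1 at −0.15 (FDR 0.239), and NBR1 changed sign (0.066, FDR 0.647).

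Of the 3 MiT/TFE factors, MITF fell. MITF lies on chromosome 3 from 69739435 to 69968337 on the plus strand (ENSG00000187098) and was at 14.7 and 12.6 CPM with vehicle and 5.17 and 3.17 CPM with CPI-455, from 311 and 276 counts and from 46 and 16. The groups did not overlap, and the fall was 3.16-fold (log2 fold change −1.66, SE 0.30, FDR 0.00112), or −1.12 with the trend removed. TFE3, the most abundant in CPM, was at 52.6 and 50.8 CPM and at 47.3 and 36.9 CPM (−0.28, SE 0.16, FDR 0.146). TFEB was at 7.43 and 9.39 CPM and at 8.66 and 13.9 CPM (0.39, SE 0.30, FDR 0.282), with overlap. The share of MITF in the counts of the family was 19.7% (17.8 to 21.7) and 17.4% (15.6 to 19.3) with vehicle, and 8.46% (6.40 to 11.1) and 5.88% (3.65 to 9.34) with CPI-455.

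The lysosomal membrane glycoproteins LAMP1 and LAMP2, which line the inner face of the lysosomal membrane, were both just inside the 2-fold limit. LAMP1, whose promoter is printed above, lies on chromosome 13 from 113297241 to 113323672 on the plus strand (ENSG00000185896). It was at 75.4 and 78.7 CPM with vehicle and 42.2 and 37.7 CPM with CPI-455 (1.92-fold lower, log2 fold change −0.94, SE 0.14, FDR 0.000268). LAMP2, on chromosome X from 120427827 to 120469365 on the minus strand (ENSG00000005893), was at 176 and 182 CPM and at 80.5 and 101 CPM (1.98-fold lower, log2 fold change −0.98, SE 0.13, FDR 0.000188). Neither gene had overlapping groups, but each group has 2 libraries and the share of all genes without overlap was not counted. With the exon length and GC trend removed, the log2 fold changes were −0.75 for LAMP1 and −0.49 for LAMP2.

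A further 171 genes of the pathway, in 6 lists, were counted beside the members, and 168 were tested. Of these, 16 rose (9.52%) and 48 fell (28.6%), with a median log2 fold change of −0.51. The share that rose was below that of all genes (21.0%) and the share that fell was above it (21.3%) and above that of protein-coding genes (24.4%). With the trend removed, 17 were higher and 41 lower, with a median of −0.36.

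Of 51 lysosomal hydrolases and activators, 6 rose and 16 fell, with a median log2 fold change of −0.51. These are 11.8% and 31.4%, against 15.6% and 24.4% of protein-coding genes. GLA, the alpha-galactosidase, rose (60.6 and 57.0 CPM with vehicle, 291 and 289 CPM with CPI-455, log2 fold change 2.30, FDR 7.63e-07), and PSAP, the precursor of the saposin activators, fell (431 and 457 CPM, then 160 and 151 CPM, −1.51, FDR 4.2e-06). The 17 subunits of the V-ATPase, the proton pump of the lysosome, had no rise and 2 falls (ATP6AP1 and ATP6V0B, 11.8%), with a median of −0.71. The share of falls was below that of all genes (21.3%) and of protein-coding genes (24.4%). With the exon length and GC trend removed, 4 subunits were called lower. ATP6AP1, an accessory subunit, fell from 206 and 200 CPM to 89.7 and 90.0 CPM (−1.17, FDR 1.97e-05). With no minimum fold, 3 subunits of the pump were higher and 11 lower at an FDR below 0.05. The shares of protein-coding genes by that rule were 26.3% and 38.7%.

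Upstream of the ULK complex, 36 genes of mTORC1, AMPK and lysosomal nutrient sensing had 4 rises (NPRL2, FLCN, LAMTOR4 and PRKAG2) and 8 falls, and a median log2 fold change of −0.01. The rises are 11.1% and the falls 22.2%, against 15.6% and 24.4% of protein-coding genes. NPRL2, a subunit of the GATOR1 complex that restrains mTORC1 when amino acids are short, rose from 23.6 and 21.7 CPM to 106 and 99.9 CPM (2.18, FDR 1.98e-06). SESN2, a leucine sensor and stress-induced inhibitor of mTORC1, fell from 451 and 444 CPM to 76.9 and 78.5 CPM (−2.53, FDR 5.83e-07). With the trend removed, LAMTOR4 was no longer called (0.63) and the falls numbered 5. NPRL2 and SESN2 are both negative regulators of mTORC1. They were named as the called genes with the smallest FDR in each direction, so their opposite directions follow from that rule.

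At the step of fusion with the lysosome, 3 of 20 genes rose (VPS16, VAMP8 and INPP5E) and 5 fell (VPS18, VPS11, VPS33A, SNAP29 and YKT6), with a median log2 fold change of −0.38. The shares of the list that rose and fell were close to those of protein-coding genes (15.6% and 24.4%). VPS16 and VPS18, core subunits of the same HOPS tethering complex, were named as the called genes with the smallest FDR in each direction. VPS16 rose from 20.3 and 19.6 CPM to 80.4 and 63.7 CPM (1.86, FDR 1.17e-05), and VPS18 fell from 36.9 and 37.7 CPM to 1.91 and 3.77 CPM, or 17 and 19 counts (−3.82, FDR 4.81e-06). VAMP8 (0.47) and VPS11 (−0.80) were no longer called with the trend removed. The fall of VPS18 was larger than that of any of the 40 members tested.

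Of 21 other autophagosome formation genes, 2 rose (ATG16L2 and ATG9B) and 6 fell, with a median log2 fold change of −0.20. These are 9.52% and 28.6%, against 15.6% and 24.4% of protein-coding genes. ATG16L2, a relative of ATG16L1, rose from 14.4 and 10.9 CPM to 151 and 120 CPM (3.43, FDR 9.66e-07), whereas ATG16L1 had no called change. SMCR8, a partner of C9orf72 and WDR41, fell from 94.3 and 101 CPM to 14.1 and 14.7 CPM (−2.77, FDR 1.02e-06). Among 23 selective autophagy receptors and kinases, 11 fell, with a median of −0.96. NCOA4, the receptor for ferritin and a coactivator that binds the androgen receptor, fell from 155 and 170 CPM to 37.0 and 31.9 CPM (−2.23, FDR 1.83e-06). This list had the largest share of falls of the 6 (47.8%, against 21.3% of all genes and 24.4% of protein-coding genes). With the trend removed, 8 of its genes were called lower, and BNIP3L, BCL2L13 and RTN3 no longer were.

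**Figure D5:**
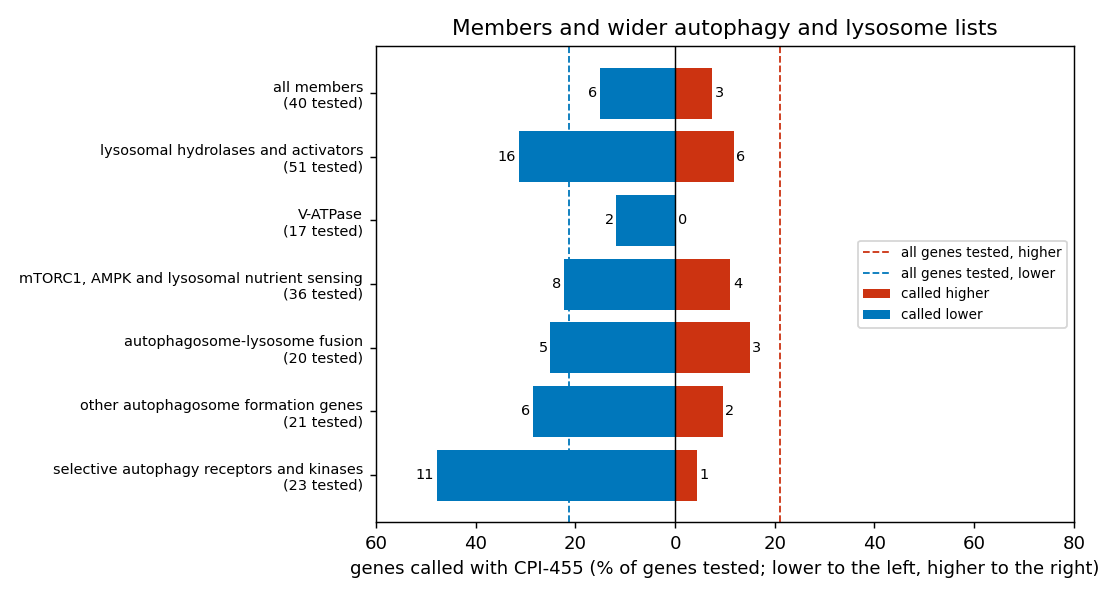
Percentage of genes called higher (red, to the right of zero) or lower (blue, to the left) with CPI-455 (horizontal axis), for the members and the 6 wider lists (vertical axis), with the number of genes beside each bar. Dashed lines are the shares of all genes tested, 21.0% higher and 21.3% lower. The selective autophagy list extends farthest to the left, at 47.8%, and every bar to the right ends short of the line for all genes.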

How the data were processed

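RNA-seq libraries were made from total RNA of 4 LNCaP cultures. How RNA was selected and whether libraries were stranded is not given in the sources used here. The authors trimmed reads with Trim Galore and mapped these to GRCh38 using STAR. Fragments falling on exons were summed per gene by featureCounts (v1.5.0-p1) over Ensembl release 83. The deposited files hold these raw counts with no scaling. Per the file headers, counting ignored strand and dropped fragments that map to several places or cover several genes, so paralogs and overlapping genes are measured less surely. The labels and the methods give different DMSO concentrations, and none is used here.

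Samples were grouped by their labels. The methods call the libraries biological replicates. Counts were compared with edgeR 4.0.16 in R 4.3.3 (TMM, filterByExpr with a minimum count of 10, glmQLFit and glmQLFTest, no covariates, Benjamini-Hochberg over 17600 genes). Genes were called at an FDR below 0.05 and at least 2-fold. CPM are TMM-normalized, SE is the log2 fold change divided by the square root of F, and 1 fragment is worth 0.0483 to 0.185 CPM before TMM scaling. The test was checked on simulated data. Alternatives used limma 3.58.1, mgcv 1.9.3 and DESeq2 1.42.0, with other scalings, filters, tests and thresholds, a replicate block, an exon length and GC trend fitted in each library, and each library left out. Gene types are from GENCODE release 44. Promoter windows and motifs are from RefSeq sequence, with 36 of 41 members matched, and LAMP2, MAP1LC3A, UVRAG, ATG4D and RB1CC1 unmatched. Intervals are 95% Wilson intervals.

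The members and lists were chosen with earlier results of these data known. All 41 members are accounted for. Values per library are given for every member called, for all ATG8 genes, cargo receptors and MiT/TFE factors, and for at least 1 member per role. From each wider list, the called gene with the smallest FDR in each direction was named where its mean log2 CPM was at least 4. Where 5 or fewer genes of a wider list were called in a direction they are named, those outside this rule after their values were seen, except for a gene that is not reported here.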

Additional observations from a re-analysis of the deposited data

How the results depend on the processing

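Of the 9 members called, 5 (GABARAPL1, ATG4B, ATG10, ATG101 and MITF) stayed called in the same direction under all 15 alternative fits, and 15 uncalled members stayed uncalled in the same direction. The number of members that rose was 3 in every fit that leaves out a library, and 9 with no minimum fold. The number that fell (6) was 3 with upper-quartile normalization, 12 with library totals only, 11 with no filter, 2 with the exon length and GC trend removed, 2 with the replicate block and that trend removed, 20 with no minimum fold, 3 with glmTreat (a test against 2-fold), and 7 to 9 when a library was left out. The median of the members (−0.34) was −0.16 with upper-quartile normalization, −0.53 with library totals, −0.46 with no filter, −0.076 with the trend removed, −0.077 with the block and the trend removed, and −0.43 to −0.37 when a library was left out. Upper-quartile normalization moved the median of all genes by 0.17 and library totals moved it by −0.19. With no filter the median differed by −0.37, but it was taken over a larger set that also holds genes of few counts. The estimates that changed sign were all of uncalled members. With the trend removed, and with the block and the trend removed, these were ATG13 (0.021 and 0.020), ATG14 (0.13 and 0.041), UVRAG (0.15 and 0.15), ATG2B (0.079 and 0.086), ATG7 (0.33 and 0.33), ATG16L1 (0.14 and 0.14) and NBR1 (0.066 and 0.068). ATG7 was also 0.15 with upper-quartile normalization and 0.019 with at least 10 counts in every library, and ATG12 was −0.025 with library totals. Leaving out a library gave ATG7 −0.13 to 0.024, ATG14 −0.86 to 0.051 and TFEB −0.0022 to 0.70. The cause of these shifts was not tested. Whether the replicate numbers pair the cultures is not stated, and same-numbered libraries did not deviate together across genes (correlation of deviations 0.040). With the replicate block 3 members rose, 7 fell with a median of −0.35, and 7167 of all genes were called against 7454. The smaller CPI-455 libraries limit the precision for genes of low level such as MITF, with 46 and 16 counts.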
